A study of Mus musculus with 24 samples.

Results

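Round spermatids with a combined knockdown of CBP and p300 were compared with wild-type round spermatids from adult mice aged 7 weeks. The comparison took the 12 arrays whose titles mark them as round spermatids, 6 wild type and 6 knockdown, out of 24 arrays in the series. The other 12 arrays hold condensing spermatids of the same genotypes and ages. The knockdown is described as acting in cells after meiosis, and the mouse strain, the driver of the knockdown and the way the cells were purified are not stated. Every sample had an RNA integrity number of at least 7, per the labels, and biotin-labelled cRNA was hybridized to Illumina bead arrays. Nothing says that replicates came from separate animals, so p-values measure only the spread between these samples, which may be technical. The samples are bulk RNA, in which fewer cells of a type and less RNA per cell cannot be told apart.

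CBP (Crebbp) and p300 (Ep300) are closely related acetyltransferases. They acetylate histones and transcription factors and serve as coactivators for many DNA-binding proteins, among them CREB and CREM. Round spermatids are haploid cells that have finished meiosis, still package their DNA with histones and transcribe actively. In them CREM, with its testis coactivator ACT (Fhl5), switches on genes for the acrosome, the flagellum and the transition proteins and protamines, and many of these messages are stored for translation in later cells.

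The arrays did not group by genotype. Between 16264 and 18411 of 45281 probes were detected per round array (detection p under 0.05; 35.9% to 40.7%). The wild-type mean was 17375 ± 841 (SD, n = 6) and the knockdown mean 17519 ± 649, a difference smaller than the spread (exact two-sided permutation test over 924 splits, p = 0.734). Log2 values of 2 arrays correlated at 0.970 to 0.995 within a genotype (median 0.989) and at 0.969 to 0.995 between genotypes (median 0.990). The first axis of variation held 53.4% of the variance. It set wild-type array 3 and knockdown arrays 8 and 10 apart from the rest, with scores of 31.9 to 35.3 against at most 1.01 for the other 9. Each of these 3 arrays was closest to another of the 3, across the genotypes. At the far end of the axis stood wild-type arrays 1 and 2 with knockdown arrays 11 and 12. Transcripts higher on the 3 arrays than on any other included Eif4g2, Cul1 and the meiotic genes Meioc and Smc1b, and transcripts with the opposite loading included Spaca5, a sperm acrosome gene, and the globins Hba-a1 and Hbb-bs, though the globin values of knockdown array 8 lay within the range of the other arrays. Differences that turned sign or moved markedly without these 3 arrays are given with both values for many of the genes and lists below. Of 32 round spermatid markers 29 were measured, and each was detected on all 12 arrays; condensing arrays carry such transcripts too, so this does not tell the stages apart.

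**Figure D1:**
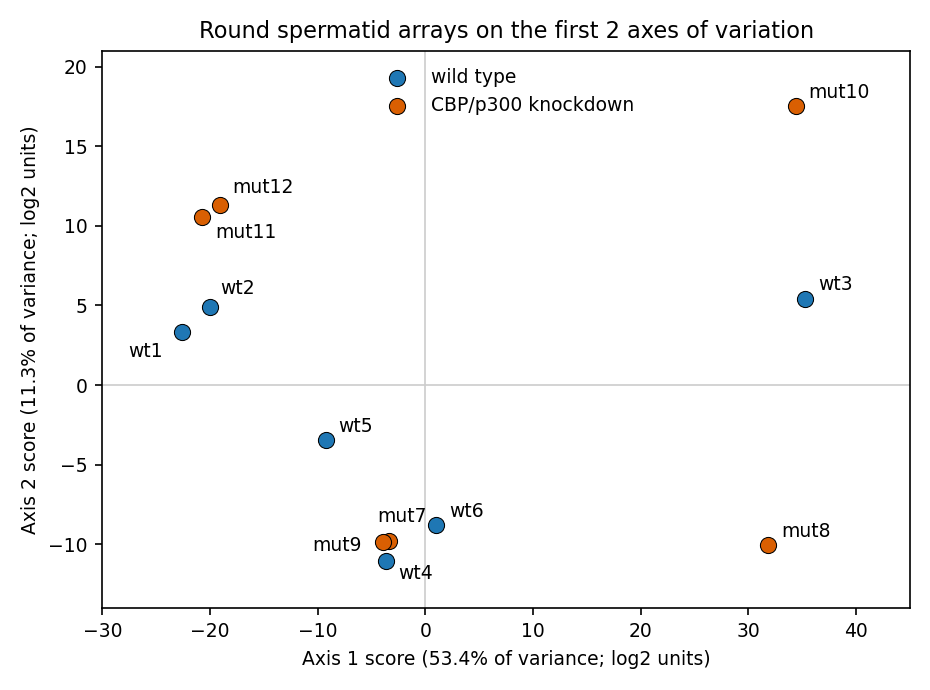
Scores of the 12 round arrays on the first 2 axes of variation of log2 values, which hold 53.4% and 11.3% of the variance. Each point is 1 array, coloured by genotype; wild-type array 3 and knockdown arrays 8 and 10 lie at 31.9 to 35.3 on the first axis, and the genotypes mix along both axes.

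The question of the comparison is which transcripts of round spermatids depend on CBP and p300. No gene changed by the test. None of the 10759 genes tested passed limma's moderated test at a Benjamini-Hochberg adjusted p under 0.05 (0 called, 0%), and the smallest adjusted p was 0.894. At an unadjusted p under 0.05 stood 388 genes (3.61%), 232 higher (2.16%) and 156 lower (1.45%) in the knockdown, and 4 genes had an unadjusted p under 0.001. Other background corrections, scalings, filters and spread models also gave 0 calls, and leaving out wild-type array 3 took the unadjusted count from 388 to 1244 with 0 calls. With 1 axis of the residual variation as a covariate, added after the data were seen, 6 genes (0.0558%) passed. That axis came from the same residuals and shrinks the errors by construction.

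The size of what could have been missed is bounded only for genes away from the background and from the top of the scale. Of the genes tested, 8627 were detected on all 6 arrays of a round group. The others were detected on fewer round arrays, some on none, and near the background a difference could be hidden. The counts below include such genes. Differences in log2 units ran from -0.87 for Ttc8 to 0.64 for Hbb-bt, with 5th and 95th percentiles of -0.23 and 0.23 and a median of 0.00. The difference was above 0 in 5477 genes (50.9%). With the brightest probe standing for each gene, no gene differed by 2-fold or more, and 6 genes differed by 1.5-fold or more, 2 higher and 4 lower. The 95% interval of the median gene reached 0.29 log2 (1.22-fold) to either side. For 9901 genes (92.0%) the whole interval lay within 1.5-fold of wild type, and for 10753 genes (99.9%) within 2-fold. These intervals use a spread shared with the condensing arrays. With the 12 round arrays alone, the interval of the median gene reached 0.32 log2 to either side. In that setting 83.1% of 9772 genes had the whole interval within 1.5-fold. The spread between replicates was larger in the knockdown, with a median SD of 0.26 against 0.23 log2 and a higher SD in 65.3% of genes. Of the arrays that stand apart on the first axis, the knockdown group holds arrays 8 and 10 and wild type only array 3. Genes vary together along that axis, so they are not separate observations of the spread. How far these arrays set the larger spread was not tested.

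**Figure D2:**
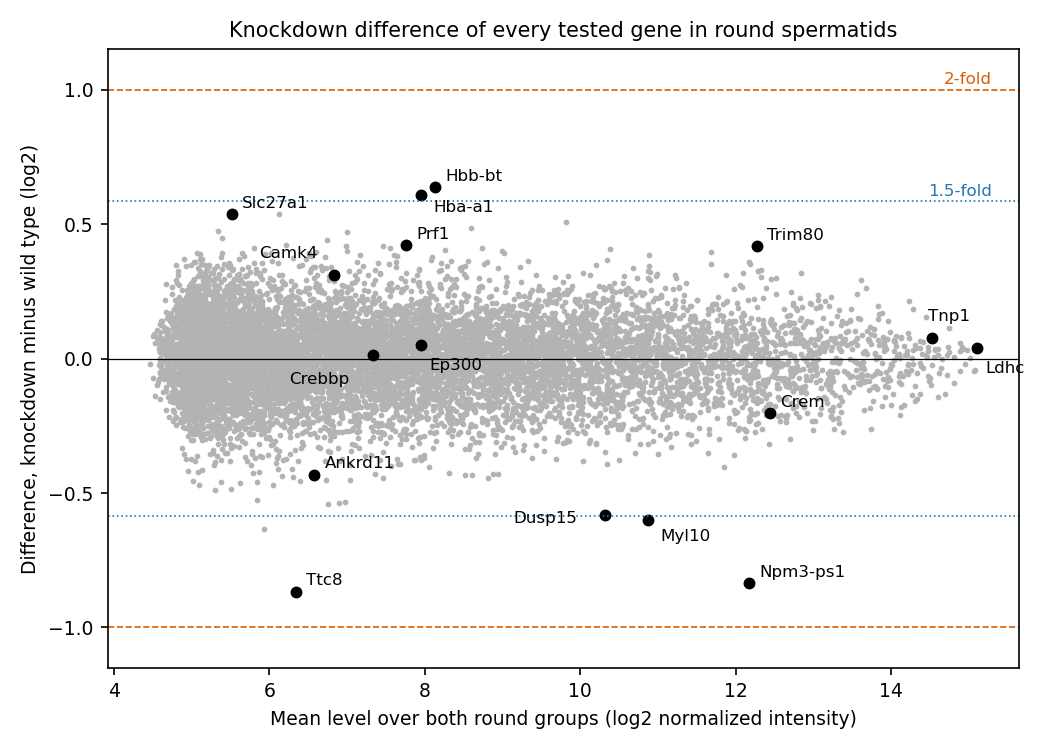
Knockdown minus wild type difference (vertical axis, log2) against the mean level over both round groups (horizontal axis, log2 normalized intensity) for the brightest probe of each of the 10759 tested genes, 1 grey point a gene. Black points are named genes; dashed and dotted lines mark 2-fold and 1.5-fold, and no gene reaches 2-fold on that probe.

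The targeted genes were at the same level in both genotypes within the error. Crebbp, which encodes CBP, ran from 7.15 to 7.73 log2 in wild type with a median of 7.22, and from 6.98 to 7.83 in the knockdown with a median of 7.30. Ep300, which encodes p300, ran from 7.62 to 8.67 with a median of 7.81 in wild type, and from 7.58 to 8.55 with a median of 7.86 in the knockdown. The groups overlapped over nearly their whole range, and the highest values of both genes came from wild-type array 3 and knockdown array 10. The differences were 0.01 ± 0.17 (SE, 6 arrays a group) for Crebbp and 0.05 ± 0.17 for Ep300. Without the 3 arrays that stand apart they were -0.10 and -0.04. These errors rest on a spread shared with the condensing arrays, not on the round arrays alone. Within the round groups the SD was 0.22 in wild type and 0.38 in the knockdown for Crebbp, and 0.38 and 0.39 for Ep300. Another Crebbp probe differed by -0.0024. Another probe of Ep300 differed by 0.19 and was detected on 9 of the 12 arrays. Whether these probes lie in a part of the transcripts that the knockdown removes is not known, so they do not check the genotype labels. Of the 27 measured writers, readers and erasers of acetylation, 14 were higher and 13 lower in the knockdown, with a median difference of 0.02 (all genes 0.00) and 0 called. The bromodomain gene Brd2, the brightest of them, differed by -0.04, and the deacetylase Hdac11, which had the smallest p, by 0.23 ± 0.13 (unadjusted p = 0.0778). All 27 had intervals within 1.5-fold, and 23 of them were detected on all 12 round arrays. For the rest, near the background, a difference could be hidden.

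The CREM branch showed no called member. Crem itself ran from 12.32 to 12.76 log2 in wild type with a median of 12.53, and from 12.11 to 12.53 in the knockdown with a median of 12.34. The ranges overlapped between 12.32 and 12.53. The difference was -0.20 ± 0.10 (unadjusted p = 0.0555, limma adjusted p = 0.999), and the 4 other Crem probes gave -0.14 to 0.02. Fhl5, the coactivator ACT, averaged 13.31 ± 0.15 log2 over wild-type and 13.35 ± 0.21 over knockdown arrays (SD, n = 6 each), a difference of 0.04 ± 0.10. Of the 13 measured CREB and CREM family members and partners, 11 were higher and 2 lower, with a median of 0.05, and 8 of 13 were higher without the 3 arrays, with a median of 0.01. Crem had the smallest p of them. Among 19 regulators of the haploid programme, 13 were higher and 6 lower, with a median of 0.04. The brightest, Sox5, which encodes an HMG box transcription factor, differed by 0.08 ± 0.10.

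CREB and CREM bind the cAMP response element TGACGTCA, which reads the same on both strands, and its shorter form TGACG. Both were looked up on both strands in RefSeq promoter windows of GRCm38.p6, from 250 bases before to 50 after each gene's start. The full element lay in 1.79% of 32851 windows of 27025 genes, and the shorter form without it in 19.02%. Of 8754 tested genes with a window, the 307 with the full element split into 150 higher and 157 lower in the knockdown, with a median difference of -0.0026. The 2621 genes with the shorter form alone split into 1356 and 1265 with a median of 0.01, and the 5826 genes with neither into 2939 and 2887 with a median of 0.0011. Each class was thus split nearly evenly. A match is a description of the sequence, not a bound site. Parts of 4 windows follow as examples: the somatic lactate dehydrogenase gene Ldha is the glycolysis gene among the named genes that holds the element, and the other 3 were chosen after their values were seen, for a sperm head gene with the element, a somatic electron carrier with it and a testis enzyme with the shorter form alone. Capitals mark the full element or the shorter form, and each sequence runs 5′ to 3′ on the gene's strand.
Ldha, chr7:46845768-46845823, plus strand: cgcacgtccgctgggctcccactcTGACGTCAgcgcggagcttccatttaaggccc
Ccin, chr4:43983418-43983497, plus strand: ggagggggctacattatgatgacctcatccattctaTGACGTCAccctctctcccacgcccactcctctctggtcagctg
Cycs, chr6:50566695-50566774, minus strand: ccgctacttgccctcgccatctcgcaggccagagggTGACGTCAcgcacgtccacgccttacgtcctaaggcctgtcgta
Ldhc, chr7:46861164-46861244, plus strand: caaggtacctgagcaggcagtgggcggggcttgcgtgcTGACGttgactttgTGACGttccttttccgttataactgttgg
Counted from the gene start, the element begins at position -12 in Ldha, -50 in Ccin and -169 in Cycs, and the first shorter form at -61 in Ldhc. The 4 genes differed between the genotypes by -0.04 (Ldha), 0.25 (Ccin), -0.07 (Cycs) and 0.04 (Ldhc), and none passed the test.

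No gene that packages spermatid DNA passed the test. Tnp1, a transition protein that replaces histones in later spermatids, ran from 14.35 to 14.64 log2 with a median of 14.48 in wild type and from 14.47 to 14.75 with a median of 14.52 in the knockdown. The ranges overlapped, and the difference was 0.08 ± 0.09. Tnp2, the second transition protein, spread more widely in the knockdown (10.59 to 11.76) than in wild type (11.15 to 11.30), and its means were 11.23 in both. Without the 3 arrays that stand apart its difference was 0.12. Prm1, a protamine, differed by 0.04 ± 0.10, and Brdt, the testis bromodomain protein that reads acetylated histones in spermatids, by -0.03 ± 0.12, with 0.08 for its other probe. Tnp1 and Prm1 lay near the highest normalized value of 15.2, where differences are compressed. Of the 23 measured packaging genes, 14 were higher and 9 lower, with a median of 0.04. At an unadjusted p under 0.05 stood Camk4, a calcium and calmodulin dependent kinase (0.31 ± 0.12), and Chd5, a chromatin remodeller of spermatids (0.20 ± 0.09). Both were higher in the knockdown and neither passed the adjusted test.

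Enzymes of sperm metabolism with a testis form and a somatic form were compared as pairs. Pgk2, the testis phosphoglycerate kinase, ran from 14.02 to 14.60 log2 in wild type and from 14.12 to 14.57 in the knockdown. Ldhc, the testis lactate dehydrogenase, averaged 15.09 ± 0.07 and 15.13 ± 0.06 (SD, n = 6 each), at the top of the scale, and Gapdhs, the sperm glyceraldehyde phosphate dehydrogenase, at 13.92 ± 0.04 and 13.95 ± 0.18. The groups overlapped in each, with differences of -0.02 ± 0.10, 0.04 ± 0.08 and 0.03 ± 0.09. The somatic forms Pgk1, Ldha and Gapdh differed by -0.05 ± 0.17, -0.04 ± 0.10 and 0.01 ± 0.10, and Cycs, the somatic cytochrome c, by -0.07 ± 0.11. Pdha1, the somatic pyruvate dehydrogenase subunit, was detected on 2 knockdown arrays and on 0 wild-type arrays, and its difference was 0.19 ± 0.13. The testis forms Pdha2 and Cyct were not measured here.

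In glycolysis, 10 of 19 measured genes were higher and 9 lower, with a median of 0.01. Pkm, a pyruvate kinase, had the smallest p of the list. It ran from 10.34 to 10.83 log2 with a median of 10.56 in wild type and from 10.58 to 11.12 with a median of 10.91 in the knockdown, a difference of 0.30 ± 0.10 (1.23-fold, unadjusted p = 0.00498, limma adjusted p = 0.999). In the pyruvate dehydrogenase complex and citric acid cycle 9 of 22 genes were higher, with a median of -0.03, and Pdk3, a kinase that inhibits pyruvate dehydrogenase, differed by 0.25 ± 0.11. Fatty acid oxidation genes split evenly, 14 higher and 14 lower, with a median of 0.0027. Acsbg2, a testis acyl-CoA synthetase and the brightest of them, differed by 0.18 ± 0.13, and by 0.10 without the 3 arrays. Of 15 cholesterol and isoprenoid synthesis genes 8 were higher, with a median of 0.01. Of 35 genes for fatty acid, phospholipid and glycolipid synthesis 23 were higher and 12 lower, with a median of 0.04. Among these, the glycerol-3-phosphate acyltransferases Gpat3 and Gpat4 differed by 0.28 ± 0.11 and 0.20 ± 0.11, the latter by 0.12 without the 3 arrays. Agpat3, the next enzyme type of the same route, differed by 0.44 ± 0.19, and its value on knockdown array 10 was 8.07 log2 against at most 6.95 on the other 11 arrays. None of these lists held a called gene.

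Oxidative phosphorylation genes leaned to lower values in the knockdown, and that lean went with a few arrays. Of 65 measured subunits of the respiratory complexes and ATP synthase, 10 were higher and 55 lower, with a median of -0.11 and 0 members at an unadjusted p under 0.05. Uqcrh, a subunit of complex III, had the smallest p. It ran from 10.73 to 11.71 log2 with a median of 11.39 in wild type and from 10.37 to 11.46 with a median of 11.16 in the knockdown, a difference of -0.33 ± 0.17 (unadjusted p = 0.0592), and of -0.15 without the 3 arrays that stand apart. Its lowest values were those of wild-type array 3 and knockdown arrays 8 and 10. The brightest member, Atp5b, the catalytic beta subunit of ATP synthase, differed by -0.04 ± 0.09. The mean level of the list was 9.28 to 9.57 on the 3 arrays that stand apart and 9.76 to 10.3 on the other 9. Without those 3 arrays 32 of 65 members were higher and the median was -0.00033. Without knockdown array 8 alone it was 0.0048, and without wild-type array 3 alone -0.21.

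Ribosomal protein genes followed the same arrays. Of 52 measured members, 5 were higher and 47 lower, with a median of -0.11 and 0 at an unadjusted p under 0.05. Rps6, a protein of the small subunit, ran from 11.15 to 12.11 log2 in wild type and from 10.80 to 11.93 in the knockdown, a difference of -0.28 ± 0.16, and of -0.17 without the 3 arrays. Its lowest values again came from wild-type array 3 and knockdown arrays 8 and 10. Rpl23, a large subunit protein and the brightest member, differed by 0.11 ± 0.09. The list's mean level was 10.2 to 10.6 on the 3 arrays and 10.7 to 11.3 on the others, and its median was -0.0092 without them, with 24 of 52 members higher. In both lists the highest mean levels were those of wild-type arrays 1 and 2 and knockdown arrays 11 and 12. How far the makeup or the RNA of these samples sets the lean was not tested.

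**Figure D3:**
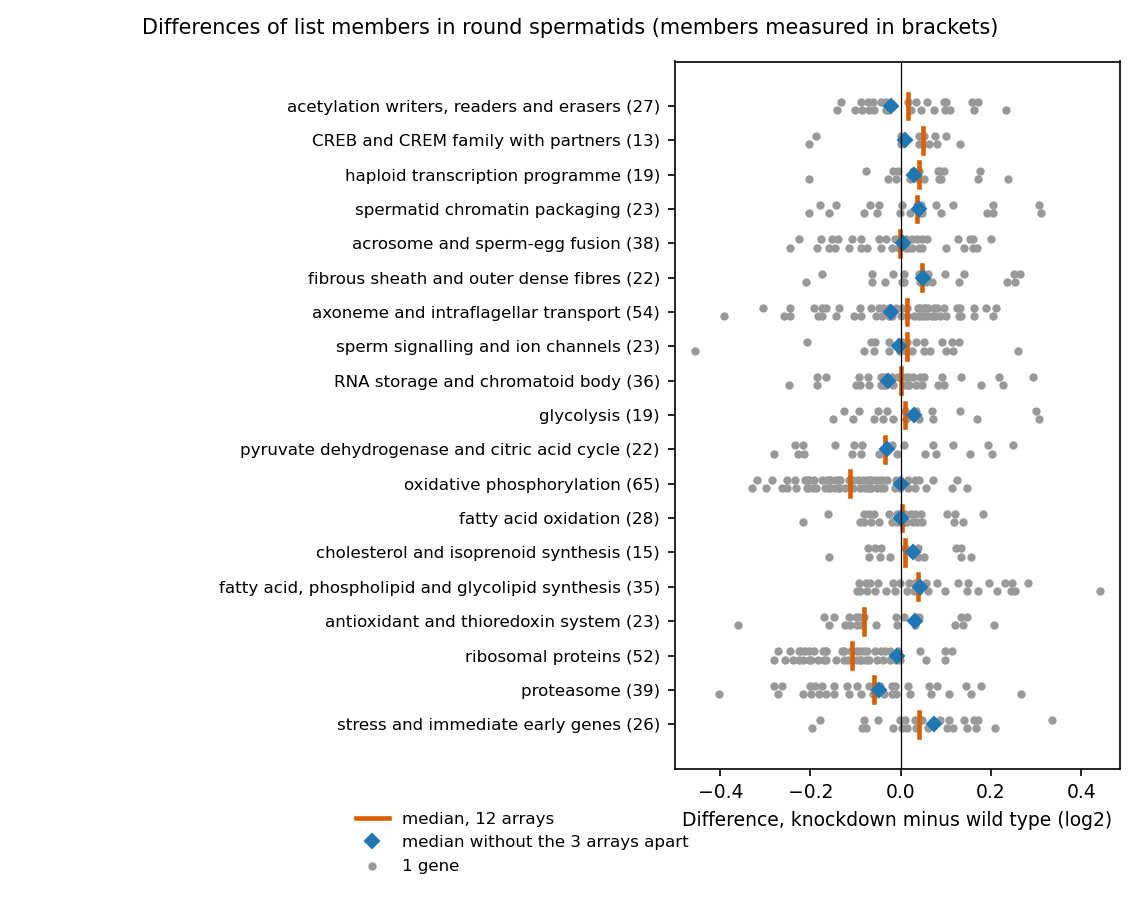
Knockdown minus wild type differences (horizontal axis, log2) of the measured members of 19 gene lists, 1 grey point a gene, with the number measured in brackets. Orange bars are medians over 12 arrays and blue diamonds medians without wild-type array 3 and knockdown arrays 8 and 10; the medians of oxidative phosphorylation and ribosomal proteins move from -0.11 to near 0.

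Of the 39 measured proteasome genes, 10 were higher and 29 lower, with a median of -0.06, and of -0.05 without the 3 arrays, where 14 were higher. Psmb6, a catalytic subunit of the core particle, ran from 11.45 to 12.30 log2 in wild type and from 10.91 to 12.02 in the knockdown, a difference of -0.40 ± 0.16 (unadjusted p = 0.0177), with -0.30 ± 0.15 for its other probe, and -0.25 without the 3 arrays. Of 23 antioxidant genes 8 were higher and 15 lower, with a median of -0.08 that became 0.03 without the 3 arrays. Gpx8, a peroxidase of the endoplasmic reticulum, differed by -0.36 ± 0.15, and Gpx4, the selenoprotein that is built into the sperm midpiece, by -0.09 ± 0.09. Of 26 stress and immediate early genes 18 were higher and 8 lower, with a median of 0.04. Junb, a subunit of the AP-1 factor, differed by 0.33 ± 0.15 at a low level, and was detected on 2 wild-type and 4 knockdown arrays.

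**Figure D4:**
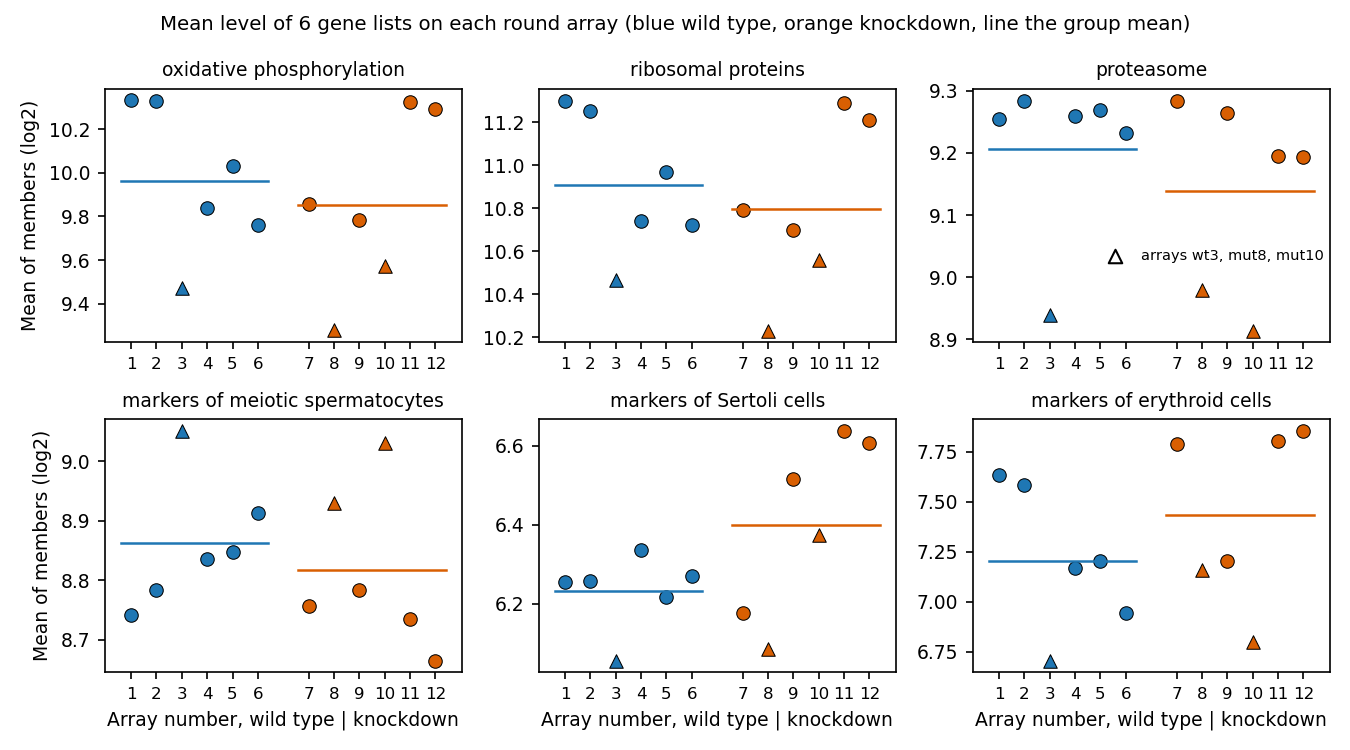
Mean log2 level (vertical axis) of the measured members of 6 lists on each round array (horizontal axis, wild-type arrays 1 to 6 and knockdown arrays 7 to 12). Lines are group means and triangles are wild-type array 3 and knockdown arrays 8 and 10, which are lowest for oxidative phosphorylation, ribosomal proteins and the proteasome and highest for the meiotic markers.

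No structural gene of the sperm passed the test. Of 38 acrosome and fusion genes 18 were higher and 20 lower, with a median of -0.0019. Adam3, a surface protein needed for passage to the egg, differed by 0.01 ± 0.12, and Spink2, an inhibitor of acrosomal proteases, by -0.23 ± 0.14. Without the 3 arrays these were -0.08 and -0.12. Of 22 fibrous sheath, dense fibre and related cytoskeletal genes 16 were higher and 6 lower, with a median of 0.05, and the same count and median without the 3 arrays. Tekt5, a tektin of the flagellum, ran from 9.15 to 9.37 log2 in wild type and from 9.35 to 9.70 in the knockdown, where the ranges met at one edge. Its difference was 0.25 ± 0.10 (unadjusted p = 0.0159), that of Ccin, the sperm head protein calicin, 0.25 ± 0.10, and that of Akap4, the main fibrous sheath protein, 0.26 ± 0.18. Odf1, the outer dense fibre protein with the highest level of the list, differed by 0.0026.

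Of 54 genes for the axoneme and intraflagellar transport, 30 were higher and 24 lower, with a median of 0.01. Without the 3 arrays 22 were higher and the median was -0.02. Ift22, a subunit of the transport complex IFT-B, ran from 9.89 to 10.84 log2 with a median of 10.61 in wild type and from 9.72 to 10.45 with a median of 10.20 in the knockdown. Only wild-type array 3 stood below the top of the knockdown range. The difference was -0.39 ± 0.14 (unadjusted p = 0.00885). Of 23 genes for sperm signalling and ion channels 14 were higher, and 10 without the 3 arrays. Tssk5, a testis-specific serine kinase, differed by -0.46 ± 0.20. The 36 genes for RNA storage and the chromatoid body, the RNA granule of round spermatids, split 18 to 18, with a median of 0.0014. Piwil1, which binds piRNAs of late meiotic and round cells, differed by -0.25 ± 0.12, with -0.07 for its other probe.

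The genes with the smallest p and the largest differences were taken next. Npm3-ps1, annotated as a transcribed pseudogene of the histone chaperone gene Npm3, had the smallest p. Its brightest probe read 12.996, 12.99, 12.47, 12.29, 12.27 and 12.53 log2 on wild-type arrays 1 to 6, and 11.61, 11.28, 11.27, 11.42, 12.61 and 12.35 on knockdown arrays 7 to 12. Knockdown arrays 7 to 10 were below every wild-type array, and arrays 11 and 12 lay inside the wild-type range. The difference was -0.84 ± 0.19 (1.78-fold lower, unadjusted p = 0.000144, limma adjusted p = 0.894). Without knockdown array 11 it was -1.01 ± 0.17, which alone of all genes passed (limma adjusted p = 0.0298).

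The second Npm3-ps1 probe averaged 9.95 ± 0.27 log2 over wild-type arrays and 8.67 ± 0.58 over knockdown arrays (SD, n = 6 each), with a lowest wild-type value of 9.45 and a highest knockdown value of 9.11. The groups did not overlap on this probe. The difference was -1.28 ± 0.22, and with each probe tested by itself it was the only one called of 15933 named probes (0.00628%; limma adjusted p = 0.0375) and of all 19086 probes kept (0.00524%; limma adjusted p = 0.0453). Testing probes one by one was added after the data were seen. This call, like the one without knockdown array 11, uses a spread shared with the condensing arrays. With the 12 round arrays alone, tested by gene, the smallest limma adjusted p was 0.9998. A test of single probes on the round arrays alone is not given. Without the 3 arrays that stand apart the difference was -1.05 (limma adjusted p = 0.142), with 0 named probes called. The probes can share signal with Npm3 and other near-identical copies, so which copy they report is uncertain. In condensing spermatids the brightest probe differed by -0.11.

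Ttc8, a subunit of the BBSome that carries proteins in cilia, had the largest difference by brightest probe. It ran from 6.22 to 7.41 log2 with a median of 6.80 in wild type and from 5.27 to 6.45 with a median of 5.97 in the knockdown. The overlap was with wild-type arrays 3 and 4, at 6.40 and 6.22. The difference was -0.87 ± 0.25 (1.82-fold lower, unadjusted p = 0.00159), -0.74 ± 0.20 on its second probe and -1.13 without the 3 arrays. It shrank to -0.34 without background correction. Dusp15, a dual specificity phosphatase, ran from 9.98 to 10.93 in wild type and from 9.15 to 10.41 in the knockdown, a difference of -0.58 ± 0.17, with -0.47 ± 0.15 on its second probe. Myl10, a myosin light chain, differed by -0.60 ± 0.19, and by -0.35 without the 3 arrays. Ddo, which oxidizes D-aspartate, differed by -0.53 ± 0.15. Ankrd11, a chromatin-associated ankyrin repeat protein, did not overlap between the groups (6.70 to 6.87 against 6.08 to 6.59; -0.43 ± 0.11), but its second probe gave 0.12 ± 0.14.

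Among genes higher in the knockdown, Trim80, a tripartite motif protein, ran from 11.89 to 12.28 log2 with a median of 12.07 in wild type and from 12.27 to 12.69 with a median of 12.49 in the knockdown. The ranges met at 1 array of each group. The difference was 0.42 ± 0.10 (1.34-fold, unadjusted p = 0.000166, limma adjusted p = 0.894). Nr4a3, an inducible orphan nuclear receptor, differed by 0.42 ± 0.11 and by 0.35 ± 0.11 on its second probe. Dcdc2c, a doublecortin domain protein, differed by 0.36 ± 0.10, and Fbxo44, a subunit of a ubiquitin ligase, by 0.31 ± 0.09. Slc27a1, a fatty acid transporter, differed by 0.54 ± 0.22, with 3 knockdown arrays (9, 10 and 12) at 5.94 to 6.84 and the other 9 arrays at 5.68 or less. The globins Hbb-bt and Hba-a1 differed by 0.64 ± 0.29 and 0.61 ± 0.31, and both spread widely within each genotype, Hbb-bt from 6.80 to 8.74 in wild type and from 7.22 to 9.22 in the knockdown. Their SDs in wild type and knockdown were 0.78 and 0.86 for Hbb-bt and 0.80 and 0.94 for Hba-a1. The errors use a spread shared with the condensing arrays and understate that of the round arrays for these genes. Without the 3 arrays that stand apart the globins differed by 0.88 and 0.87. Other Hbb-bt probes differed by 0.32 to 0.52 over all round arrays.

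Beyond single genes, 13 genes (0.121%) were higher and 7 (0.0651%) lower in the knockdown with no overlap between the groups. Of the 924 ways to split the round arrays 6 against 6, 1 separates the groups fully in each direction. Shares of this size can thus arise without a genotype difference, and a lack of overlap alone does not mark a gene as changed. Among genes with 2 or more probes, 25 of 3617 (0.691%) had at least 2 probes at an unadjusted p under 0.05 in 1 direction, 18 higher and 7 lower. They included Npm3-ps1, Ttc8, Dusp15, Nr4a3 and Akap1, which anchors protein kinase A at mitochondria and differed by 0.42 and 0.27 on these probes and by 0.16 on its brightest. The remaining Akap1 probe, detected on 6 round arrays, differed by -0.16. Probes of 1 gene had differences of the same sign in 55.8% of the 3617 genes. The share that random signs would give depends on how many probes each gene has and is not given. The 55.8% by itself is therefore no measure of agreement.

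**Figure D5:**
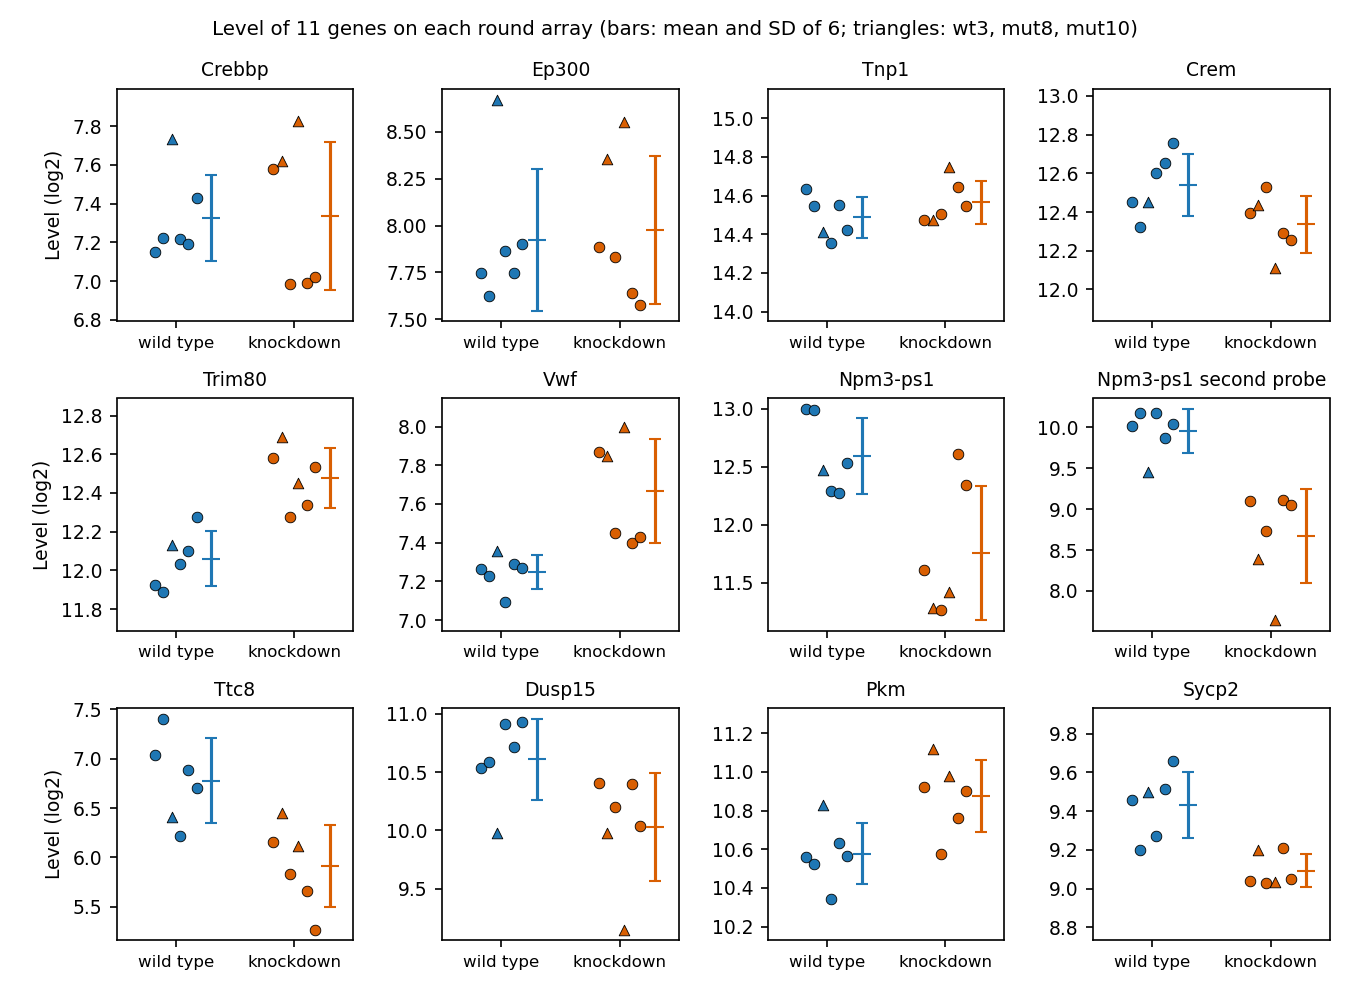
Log2 level (vertical axis) of 11 genes on each round array, with both probes of Npm3-ps1; bars give the mean and SD of 6 arrays, and triangles are wild-type array 3 and knockdown arrays 8 and 10. The groups overlap in Crebbp, Ep300, Tnp1 and Crem, and do not overlap in Vwf and the second Npm3-ps1 probe.

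Markers of other testis cells were compared between the genotypes. Sertoli cell markers were higher in the knockdown for 12 of 14 measured genes of 22, with a median difference of 0.16, and of 0.20 without the 3 arrays. Their mean log2 level ran from 6.06 to 6.34 over wild-type arrays and from 6.09 to 6.64 over knockdown arrays, with knockdown arrays 9, 11 and 12 highest. Cldn11, a tight junction protein of these cells, differed by 0.34 ± 0.12 and Sox9, their defining transcription factor, by 0.31 ± 0.12. Aard, the brightest marker, differed by 0.31 ± 0.16, and by 0.52 without the 3 arrays. Shbg and Mro were detected on 0 round arrays. No marker passed the adjusted test.

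Macrophage and leukocyte markers were higher for 13 of 18 measured genes of 24, with a median of 0.13 and mean levels of 5.79 to 6.12 over wild-type and 5.80 to 6.22 over knockdown arrays. Lyz1, the brightest, differed by -0.15 ± 0.15. Erythroid markers were higher for 5 of 7 measured genes of 13, with mean levels of 6.70 to 7.63 and 6.80 to 7.85. The higher ones include the globins Hba-a1, Hbb-bs and Hbb-bt, which vary together along the first axis of variation. The 2 lower ones were Car2, the brightest, at -0.08 ± 0.12 (0.03 without the 3 arrays), and Tfrc at -0.24. Slc4a1, the red cell anion exchanger, was detected on 0 round arrays. Of 15 peritubular and stromal markers 9 were higher (median 0.04), and endothelial, Leydig and spermatogonial markers split nearly evenly, with 6 of 12, 3 of 6 and 5 of 11 higher. Vwf, a blood clotting protein of endothelium, did not overlap between the groups (7.09 to 7.36 against 7.40 to 7.999; 0.42 ± 0.11, unadjusted p = 0.000772), while Egfl7, the brightest endothelial marker, differed by 0.04 ± 0.13, and by 0.21 without the 3 arrays. The part of these cells in any gene's difference was not tested.

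Meiotic markers were lower in the knockdown for 13 of 21 measured genes, with a median of -0.03. Without the 3 arrays, which carried the highest mean levels (8.93 to 9.05 against 8.66 to 8.91 on the rest), 18 of 21 were lower and the median was -0.10. Stag3, a meiotic cohesin subunit and the brightest of them, differed by 0.13 ± 0.16, and by -0.04 without the 3 arrays. Sycp2, a lateral element protein of the synaptonemal complex, was singled out after its values were seen. It ran from 9.20 to 9.66 log2 in wild type and from 9.03 to 9.21 in the knockdown, and only wild-type array 2 reached into the knockdown range. The difference was -0.34 ± 0.10 (unadjusted p = 0.00163, limma adjusted p = 0.999).

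The condensing arrays gave a reference for size. The same fit called 58 genes (0.539%) between genotypes in condensing spermatids. In round spermatids 23 of these 58 differed in the same direction and 5 had an unadjusted p under 0.05, with a median round difference of -0.02, and none was called. Of the 58, 30 were detected on all 6 arrays of a round group, and 12 of those 30 differed in the same direction. The other 28 were detected on fewer arrays, and near the background a difference could be hidden. The 58 were chosen for their condensing differences, so larger values there are fixed by the choice. The difference between both knockdown effects was called for 5 genes (0.0465%): Ccl4, Fos, Gria1, Prf1 and Zfp36. In 4 of them the round value was near 0: Ccl4, a chemokine, differed by 0.17 ± 0.18 in round and -1.84 in condensing spermatids, Fos, an immediate early factor, by 0.12 ± 0.16 and -1.59, Gria1, a glutamate receptor subunit, by -0.02 ± 0.17 and -1.35, and Zfp36, an RNA decay factor, by 0.09 ± 0.13 and -0.88. Ccl4 was detected on 0 wild-type and 2 knockdown round arrays. Gria1 was detected on 6 wild-type and 4 knockdown round arrays, and Fos and Zfp36 on all 12. Fos, Gria1 and Zfp36 averaged 5.54, 5.38 and 5.49 log2 over round wild-type arrays, and 7.88, 7.11 and 7.39 over condensing wild-type arrays. At such low round levels a difference could be hidden. Prf1, the pore-forming protein perforin, went the other way. It ran from 7.30 to 8.03 log2 with a median of 7.45 in wild type and from 7.50 to 8.37 with a median of 8.02 in the knockdown, a round difference of 0.42 ± 0.15 against -0.71 in condensing spermatids (limma adjusted p of the difference between effects = 0.0273). Leaving out single round arrays gave 2 to 8 such genes: 2 without wild-type array 4, 5 or 6, 3 without knockdown array 7, 8 or 11, and 8 without knockdown array 12.

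The largest called rises of condensing knockdown spermatids did not pass in round spermatids. Igfbp6, an insulin-like growth factor binding protein, differed by -0.11 ± 0.22 and the protease Htra3 by -0.03 ± 0.15, and without the 3 arrays by 0.12 and 0.10. The stromal receptor Pdgfra differed by -0.05 ± 0.20 and Prss35 by -0.06 ± 0.22. Pdgfra was detected on only 2 wild-type and 2 knockdown arrays, so its value is near the background. Il1b, a cytokine among the largest falls, differed by -0.0018 ± 0.14.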

How the data were processed

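Per the file headers, the authors' non-normalized table holds a mean bead intensity (linear scale) and a detection p-value for each probe and array; the authors also deposited a second, normalized intensity table, used as an alternative. The authors' software and test are not stated in the labels or headers. Intensities were background-corrected, offset by 16, quantile normalized over 24 arrays and put on the log2 scale (neqc in limma 3.58.1 under R 4.3.3). A probe was kept where its detection p was under 0.05 on at least 6 arrays (19086, of which 3143 had no symbol and 10 several), and the brightest probe stood for each of 10759 symbols, taken from the platform annotation. limma fitted 4 group means without batch or block, since the labels name none; tests were two-sided, adjusted over all genes, and called at an adjusted p under 0.05. Errors of differences are standard errors. They and the 95% intervals use a spread shared by the 4 groups, round and condensing, so they can differ from the spread of the round arrays alone. Precision is limited by how many arrays there are. The fit was run on simulated data with independent noise and the same spread per gene in all 4 groups. The round arrays share a large axis of variation, so the simulation does not show how the fit behaves on them.

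The round spermatid comparison, the gene lists and the alternatives were chosen with earlier results of these data known. Named genes were the targeted genes, CREM partners, packaging genes, testis and somatic enzyme pairs, the 5 smallest p and 3 largest differences in each direction, the brightest and smallest-p member of each list, the brightest of each marker list, and genes called in condensing spermatids. Other genes were named after their values were seen.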

Additional observations from a re-analysis of the deposited data

Results flagged for a closer look

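Each named gene was examined in both round groups for 1 array far from the other 5, by Dixon's test. Of 166 groups of 6, 11 had such an array, where chance gives about 1 in 20, and all 11 were wild-type array 3 or knockdown array 10. Wild-type array 3 stood high for Ep300 (8.67 log2, the others 7.62 to 7.90), Hdac11 (8.77), Acsbg2 (13.8), Rpl23 (14.9) and Hspa2 (14.9), and low for Ift22 (9.89, the others 10.5 to 10.8) and Rps6 (11.1). Knockdown array 10 stood high for Rpl23 (15.03) and low for Gapdh (7.29), Dusp15 (9.15, the others 9.98 to 10.4) and Car2 (10.6, the others 11.3 to 11.6). Both are among the 3 arrays that stand apart on the first axis of variation.

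The knockdown effect differed between round and condensing spermatids by limma's test of that difference for 5 genes. The round minus condensing value was 2.01 for Ccl4, 1.70 for Fos, 1.33 for Gria1, 1.13 for Prf1 and 0.97 for Zfp36, with limma adjusted p from 0.000149 to 0.0291. Ccl4 was detected on 0 wild-type and 2 knockdown round arrays, and Fos, Gria1 and Zfp36 were low in round spermatids. At such levels a round difference could be hidden.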

How the results depend on the processing

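No paired analysis was possible because wild-type arrays carry the numbers 1 to 6 and knockdown arrays 7 to 12, so the groups share 0 replicate numbers. The count of genes called in round spermatids was 0 in 11 other planned settings and ran from 0 to 1 when leaving out 1 array. Settings added after seeing the data gave 1 with every named probe or every kept probe by itself, 6 with 1 residual axis of variation as a covariate, 17 with 2 axes, and 0 with 1 axis on the 12 round arrays alone. Those axes were taken from the residuals of the same data, so they shrink the errors by construction and leave the differences as they are. The 6 genes were Ddo, Elmo1, Npm3-ps1, Trim80, Uqcrh and Wdr64. The count at an unadjusted p under 0.05 ran from 282 to 1244 over planned settings.

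The count of genes whose knockdown effect differed between stages was 5 in the main setting, 2 with median scaling, 8 without background correction, 11 without the filter on dim probes, 3 with probes detected on all 12 round arrays, 16 with array weights and 8 with the mean of a gene's probes, and ran from 2 to 8 when leaving out 1 array. The cause was not tested. The median of all genes stayed between -0.0023 and 0.0076 in every setting. Over 82 named genes none passed the test with the opposite sign, and 110 of 2282 values had the other sign. They include values of Stag3 (0.13 in the main setting, -0.04 at the lowest) and Igfbp6 (-0.11 in the main setting, 0.12 at the highest). A slide block was not run because the headers name no slide. Probes near the background or the top of the scale understate differences.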

Other observations

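The transcripts that varied most within a genotype did so alike in both. H2ac12 had an SD of 0.80 log2 in wild type and 0.97 in the knockdown (n = 6 each), Hba-a1 0.80 and 0.94, Ndufa3, a complex I subunit, 0.75 and 0.84, and Tmsb15a, an actin-binding thymosin, 0.81 and 0.78, while their differences between genotypes were -0.05, 0.61, -0.01 and 0.0020. H2ac12, Ndufa3 and Tmsb15a were each highest on wild-type arrays 1 and 2 and knockdown arrays 11 and 12. Hba-a1 was high on these and on knockdown array 7.

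Detection itself seldom switched with genotype. Of 45281 probes, 1 was detected on all 6 knockdown arrays and on 0 wild-type arrays, a probe of Lipe, the hormone-sensitive lipase, with mean levels of 5.20 and 4.91 log2 near the background. The brightest Lipe probe was detected on every round array, at 8.79 in wild type and 9.05 in the knockdown. None showed the reverse. On at least 5 arrays of one genotype and at most 1 of the other were 31 probes in favour of the knockdown and 12 in favour of wild type. Among the former, 1 probe each of Steap3, Rhoc and Olig1 was detected on 5 knockdown and 0 wild-type arrays.

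Groups that did not overlap often had small differences. Chtop, an mRNA export factor, differed by -0.08 ± 0.08 with ranges of 10.22 to 10.30 and 10.13 to 10.22 log2. Among those with larger values, the Wnt coreceptor Lrp5 differed by -0.46 ± 0.14, the mitochondrial topoisomerase Top1mt by 0.33 ± 0.10 and Wdsub1 by 0.35 ± 0.10. These genes were named after their values were seen.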
